A study of Mus musculus with 6 samples.

Results

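The genes described here encode HCN2, HCN3 and HCN4, which are pacemaker channels, the sodium channel beta subunit SCN4B, and the connexins of Gja1, Gja5 and Gjc1. They were taken by name, as a fixed list of 7 genes matched to GENCODE M21 symbols, and all 7 were found among the 38087 gene IDs of the files. The cells were HL-1, a mouse atrial cardiomyocyte line that keeps dividing and can beat in culture, and each sample is RNA of this 1 line. In one group (Circ-INSR siRNA, 3 libraries) the cells received 100 nM of an siRNA against Circ-INSR, a circular RNA made from the insulin receptor gene. In the other (control siRNA, 3 libraries) they received a scrambled siRNA, for which no dose is stated. The time after transfection is not given in the sources used here, and nothing in the labels ties the 3 libraries of a group to separate cultures. The p-values therefore describe the spread among these samples, and that spread may be technical.

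HCN channels open when the membrane becomes negative and carry the inward pacemaker current. Cyclic AMP binds directly to HCN2 and HCN4 and eases their opening. HCN4 is the main isoform of the sinus node, and HCN2 is found there and in working myocardium. The fast upstroke of the atrial action potential is carried by voltage-gated sodium channels, made of a large pore-forming alpha subunit and small beta subunits such as SCN4B. Connexins form the gap junction channels that pass the impulse from cell to cell: Gja1 encodes connexin43, Gja5 the atrial and conduction-system connexin40, and Gjc1 connexin45, which is typical of nodal tissue.

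Libraries of the Circ-INSR siRNA group held 68468620 to 77037474 counts and those of the control siRNA group 60024750 to 62523602, a ratio of the means of 1.19. Control replicate 3 stood apart: its chi-square per gene was 31.1 and 21.6 against the other control libraries, which differed from each other by 6.95, and genes with at least 9220 bases of exon had a median log2 deviation of -0.13 there. Values are CPM, a gene's count relative to its library's total after scaling with TMM factors, and 3 counts correspond to 0.0395 to 0.0496 CPM. Differences were tested with edgeR's quasi-likelihood test across 16666 genes, with Benjamini-Hochberg adjustment over all of them and 0.05 as the threshold. Of these genes 57.0% passed, 28.5% higher and 28.5% lower, so passing is by itself common in this comparison. Insr, the host gene of the circular RNA, had 89.2 ± 0.0183 CPM in Circ-INSR siRNA and 120.1 ± 14.2 CPM in control siRNA libraries (SD, n = 3 each); the log2 fold change was -0.43 (SE 0.07, edgeR adjusted p = 0.000393). Poly(A) selection favours linear mRNA, so this value does not measure the circular RNA.

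The upstream sequences of the genes with the largest changes, Hcn2 and Hcn4, which were higher, and Scn4b and Gja5, which were lower, are shown to set their promoters side by side. Each is the 250 bases before the start that RefSeq gives on GRCm38.p6 (the mm10 build), read 5′ to 3′, and capitals mark matches to the motifs searched. RefSeq places the Hcn4 start upstream of the GENCODE gene start, and the Scn4b and Gja5 starts inside the span of the GENCODE gene, so most of the Scn4b bases and all of the Gja5 bases printed lie within that span.
Hcn2 promoter, chr10:79716384-79716633, plus strand: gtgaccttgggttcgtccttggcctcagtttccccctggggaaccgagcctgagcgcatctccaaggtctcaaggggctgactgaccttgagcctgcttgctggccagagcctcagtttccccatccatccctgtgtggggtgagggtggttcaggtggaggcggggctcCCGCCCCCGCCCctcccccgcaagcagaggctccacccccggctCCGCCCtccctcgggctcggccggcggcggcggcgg
Hcn4 promoter, chr9:58822699-58822948, plus strand: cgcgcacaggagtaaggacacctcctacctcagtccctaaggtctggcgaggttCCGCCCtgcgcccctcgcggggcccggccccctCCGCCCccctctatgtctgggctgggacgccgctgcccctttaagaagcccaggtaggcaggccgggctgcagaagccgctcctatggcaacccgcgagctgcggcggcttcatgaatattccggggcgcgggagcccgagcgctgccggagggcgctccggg
Scn4b promoter, chr9:45138374-45138623, plus strand: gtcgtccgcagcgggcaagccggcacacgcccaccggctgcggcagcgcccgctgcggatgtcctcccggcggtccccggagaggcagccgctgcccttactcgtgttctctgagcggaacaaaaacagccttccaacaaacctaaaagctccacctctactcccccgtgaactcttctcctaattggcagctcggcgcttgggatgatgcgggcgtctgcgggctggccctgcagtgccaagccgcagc
Gja5 promoter, chr3:97032152-97032401, plus strand: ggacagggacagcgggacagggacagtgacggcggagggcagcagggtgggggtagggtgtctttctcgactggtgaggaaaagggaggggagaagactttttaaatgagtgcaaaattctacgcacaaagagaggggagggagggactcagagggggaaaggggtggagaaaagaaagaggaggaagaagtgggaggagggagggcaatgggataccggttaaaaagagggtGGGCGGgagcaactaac
Both strands were searched for 7 motifs: those of the GATA factors (AGATAA), T-box factors (GGTGTG), NKX2-5 (TNAAGTG), AP-1 (TGANTCA) and Sp1 (GGGCGG), the TATA box (TATAAA), and the MEF2 motif. The capitals in these 4 promoters are all Sp1 letters. Hcn2 held 3 matches, starting 80, 74 and 36 bases before the start, and Hcn4 held 2, at 196 and 163 bases. Gja5 had 1 match, 17 bases before the start, and Scn4b had 0. Among 32851 promoters of the same length 32.7% held the Sp1 motif. The Gja1 promoter, not shown, held 1 AP-1 match and 1 GATA match, which 2217 and 3281 of all 32851 promoters held. The GC content was 70.4% for Hcn2, 71.2% for Hcn4, 66.0% for Scn4b, 56.4% for Gja5 and 50.0% for Gja1. A match describes letters only, and no binding was measured.

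Of the 7 genes, 2 rose after Circ-INSR siRNA (Hcn2 and Hcn4), 3 fell (Scn4b, Gja5 and Gja1) and 2 did not pass the test (Hcn3 and Gjc1). All 7 had passed the filter on low counts. The libraries of both groups were separate for 5 of the 7, against 63.3% of all genes tested, and 5 of 7 past the threshold stands against 57.0%. Neither count is far from that background, so the account below rests on size and direction of each gene. The median log2 fold change was 0.04 over the 7 genes and -0.005 over all genes tested.

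**Figure D1:**
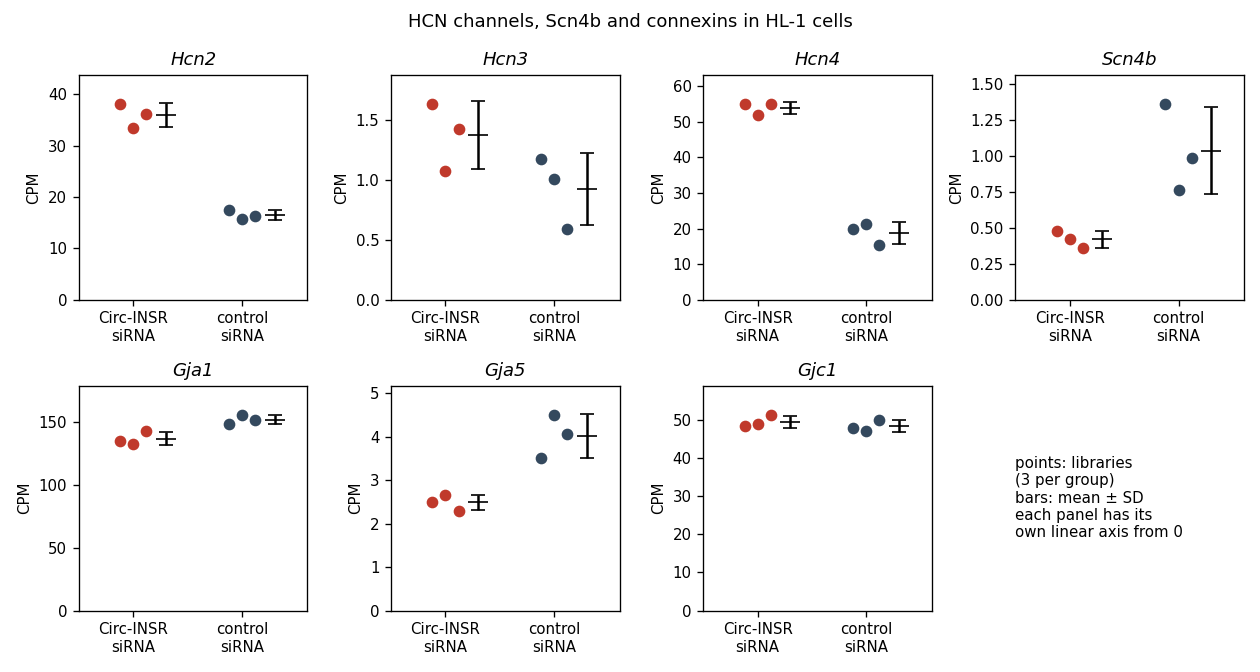
Level of each of the 7 genes in CPM (linear axes from 0, a separate scale per gene), with Circ-INSR siRNA on the left and control siRNA on the right; points are libraries and bars the mean ± SD of 3. Hcn2 and Hcn4 are higher in every Circ-INSR siRNA library, Scn4b, Gja5 and Gja1 are lower in every one, and the groups overlap for Hcn3 and Gjc1.

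Hcn4 (ENSMUSG00000032338, mm10 chr9:58823412-58863175, plus strand) changed most among the 7. It had 55.0, 51.9 and 54.9 CPM in the Circ-INSR siRNA libraries, against 19.8, 21.2 and 15.4 CPM in the control siRNA libraries. The groups were far apart, and the lowest control value belonged to replicate 3. The log2 fold change was 1.52 (SE 0.10, edgeR adjusted p = 9.64e-07), a ratio of 2.87, and its rise ranked 185 among the 16666 genes tested. Without control replicate 3 it was 1.40.

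Hcn2 (ENSMUSG00000020331, chr10:79716634-79736108, plus strand) had 38.1, 33.5 and 36.2 CPM in Circ-INSR siRNA libraries, against 17.5, 15.7 and 16.4 CPM in control siRNA libraries. Every Circ-INSR siRNA library lay well above every control, and control replicate 3 fell between the other controls. The log2 fold change was 1.12 (SE 0.06, edgeR adjusted p = 6.09e-08), or 2.18-fold, and its rise ranked 387.

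Hcn3 (ENSMUSG00000028051, chr3:89146074-89160196, minus strand) is a minor isoform in these cells. It gave 110, 81 and 102 counts (1.63, 1.07 and 1.42 CPM) after Circ-INSR siRNA and 71, 64 and 37 counts (1.17, 1.01 and 0.589 CPM) in control siRNA libraries. The groups overlapped, since Circ-INSR siRNA replicate 2 lay below control replicate 1. The log2 fold change of 0.57 (SE 0.25, 95% interval 0.02 to 1.11) did not pass after adjustment over all genes (edgeR adjusted p = 0.0722). It passed when control replicate 1 was left out (0.77, adjusted p = 0.0306) and when Circ-INSR siRNA replicate 2 was left out (0.72, adjusted p = 0.0400). It also passed with no filter on low counts (adjusted p = 0.0460) and after each library's dependence on exon length and GC was taken out (adjusted p = 0.0194). Without control replicate 3 it was 0.33. Exons of Hcn3 share 711 bases, 17.1% of its exonic length, with Pklr on the other strand. Pklr itself had at most 6 counts in any library.

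The make-up of Hcn2, Hcn3 and Hcn4 transcripts was compared per kilobase of exon. Hcn4 made up 43.3 ± 0.991% of the 3 genes in Circ-INSR siRNA libraries and 36.2 ± 3.94% in control siRNA libraries (SD, n = 3 each). The ranges of 42.2 to 44.2% after Circ-INSR siRNA and 32.3 to 40.2% in controls did not overlap, and the lowest value was that of control replicate 3. The share of Hcn2 was 55.1 ± 0.746% after Circ-INSR siRNA and 61.2 ± 4.46% in controls. The share of Hcn3 was 1.61 ± 0.259% after Circ-INSR siRNA and 2.60 ± 0.693% in controls. Hcn2 was thus the leading transcript of the 3 in both groups, with Hcn4 next. The summed level of Hcn2, Hcn3 and Hcn4 was 20.4 ± 1.06 CPM per kilobase in Circ-INSR siRNA and 8.46 ± 0.610 in control siRNA libraries.

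**Figure D2:**
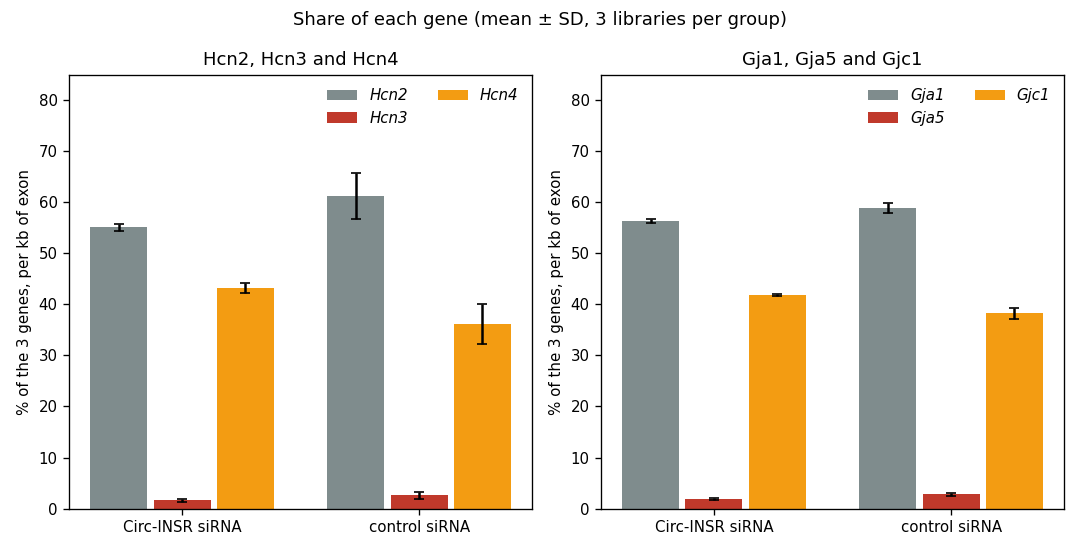
Share in % of Hcn2, Hcn3 and Hcn4 (left panel) and of Gja1, Gja5 and Gjc1 (right panel), from counts per kilobase of exon, with Circ-INSR siRNA on the left and control siRNA on the right of each panel; bars are means and error bars the SD of 3 libraries. Hcn4 takes 43.3% after Circ-INSR siRNA and 36.2% in controls, and Gja1 and Gjc1 hold nearly all of the transcripts of the 3 connexin genes in both groups.

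Scn4b (ENSMUSG00000046480, chr9:45138395-45154152, plus strand) encodes a beta subunit that binds the alpha subunit through a disulfide bond and shapes resurgent sodium current. It gave few counts, with 32, 32 and 26 counts (0.475, 0.421 and 0.362 CPM) after Circ-INSR siRNA and 82, 48 and 62 counts (1.36, 0.761 and 0.987 CPM) in control siRNA libraries. All 3 Circ-INSR siRNA libraries lay below all controls, and the controls spread widely. The log2 fold change was -1.30 (SE 0.26, 95% interval -1.87 to -0.73, edgeR adjusted p = 0.00114). Its values did not reach the filter of 1 CPM in 3 libraries, where it was not tested.

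Other sodium channel subunit genes were set beside Scn4b. Of 12 such genes 3 were tested, of which 2 were higher and 0 lower, and 1 did not pass. The genes that rose were Scn4a, the skeletal muscle alpha subunit, and Scn10a, a sensory-neuron form. Scn4a had 93, 102 and 58 counts after Circ-INSR siRNA against 9, 5 and 5 in control siRNA libraries (log2 fold change 3.50, SE 0.35, edgeR adjusted p = 5.32e-06), and it was low in both groups. Scn10a was at 11.8 ± 0.820 CPM after Circ-INSR siRNA against 9.40 ± 0.330 CPM in controls (log2 fold change 0.32, SE 0.07, edgeR adjusted p = 0.00274). Among the beta subunit genes, Scn2b had 0 counts in all libraries and Scn3b at most 12.

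Gja5 (ENSMUSG00000057123, chr3:96904693-97077416, plus strand), the connexin40 gene, fell most among the 3 connexin genes. It had 2.50, 2.66 and 2.30 CPM after Circ-INSR siRNA (168, 202 and 165 counts) against 3.50, 4.50 and 4.06 CPM in control siRNA libraries (212, 284 and 255 counts). The groups were separate. The log2 fold change was -0.70 (SE 0.12, edgeR adjusted p = 0.000454), or 0.618 of the control level. Exons of Gja5 share 165 bases, 2.87% of its exonic length, with Gpr89 on the other strand, which had between 2209 and 2948 counts and a log2 fold change of 0.01 (SE 0.06).

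Gja1 (ENSMUSG00000050953, chr10:56377330-56402513, plus strand), the connexin43 gene, was the most abundant of the 7. It had 135, 133 and 143 CPM after Circ-INSR siRNA against 149, 156 and 152 CPM in control siRNA libraries. The groups did not overlap, but the difference was small, with a log2 fold change of -0.15 (SE 0.04, edgeR adjusted p = 0.0117), or 0.900 of the control level. The call was lost without control replicate 2 (adjusted p = 0.0519), without Circ-INSR siRNA replicate 1 (adjusted p = 0.0657) and without Circ-INSR siRNA replicate 2 (adjusted p = 0.0742).

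Gjc1 (ENSMUSG00000034520, chr11:102799579-102819700, minus strand), the connexin45 gene, had 48.4, 48.9 and 51.3 CPM after Circ-INSR siRNA and 47.8, 47.2 and 50.1 CPM in control siRNA libraries. The groups overlapped, and the log2 fold change was 0.04 (SE 0.05, 95% interval -0.07 to 0.14, edgeR adjusted p = 0.540). With total counts in place of the scaling factors its sign turned, at -0.01. Per kilobase of exon Gja1 made up 56.4 ± 0.381% of the 3 connexins after Circ-INSR siRNA and 58.9 ± 0.899% in controls. Gjc1 made up 41.8 ± 0.243% after Circ-INSR siRNA and 38.3 ± 1.09% in controls, and Gja5 1.83 ± 0.185% after Circ-INSR siRNA and 2.77 ± 0.309% in controls. The summed connexin level was 23.7 ± 0.764 CPM per kilobase after Circ-INSR siRNA and 25.2 ± 0.425 in controls.

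Whether genes of a family responded unequally was asked from the ratio of each pair within a library, which does not depend on scaling. In 5 of 6 pairs the groups did not overlap, each with an exact two-sided permutation p of 0.1, the smallest that 3 against 3 libraries allow, and 0.120 after adjustment over the 6 pairs. The design cannot reach 0.05 here. Groups were also separate for 63.3% of all single genes tested, and no such share was taken over other gene pairs. Ratios within a family share genes, so the 5 are not independent. The log2 ratio of Hcn2 over Hcn4, from counts per kilobase, was 0.35 ± 0.05 after Circ-INSR siRNA and 0.76 ± 0.26 in controls, a difference of -0.41 (SE 0.15). Without control replicate 3 this difference was -0.28. The log2 ratio of Hcn3 over Hcn4 differed by -0.93 (SE 0.24), and by -1.09 without control replicate 3. Hcn2 over Hcn3 differed by 0.52 (SE 0.32), with overlapping groups (exact permutation p = 0.3), and by 0.81 without control replicate 3. Gja1 over Gja5 differed by 0.54 (SE 0.13), Gja5 over Gjc1 by -0.73 (SE 0.14) and Gja1 over Gjc1 by -0.19 (SE 0.04).

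In order of level per kilobase of exon after Circ-INSR siRNA, Gja1 stood at 13.4, Hcn2 at 11.2, Gjc1 at 9.91, Hcn4 at 8.81, Gja5 at 0.432, Hcn3 at 0.331 and Scn4b at 0.0842 CPM per kilobase. In the control siRNA group the order was Gja1 at 14.8, Gjc1 at 9.67, Hcn2 at 5.17, Hcn4 at 3.07, Gja5 at 0.700, Hcn3 at 0.223 and Scn4b at 0.208 CPM per kilobase. Hcn2 thus stood above Gjc1 after Circ-INSR siRNA and below it in controls. Neighbours in either order had separate library ranges except Hcn3 and Scn4b in controls, at 0.142 to 0.282 and 0.153 to 0.272 CPM per kilobase. Among all tested genes with an exonic length Hcn4 was at percentile 62.9 after Circ-INSR siRNA and 40.2 in controls, and Hcn2 at percentile 68.7 after Circ-INSR siRNA and 50.4 in controls.

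**Figure D3:**
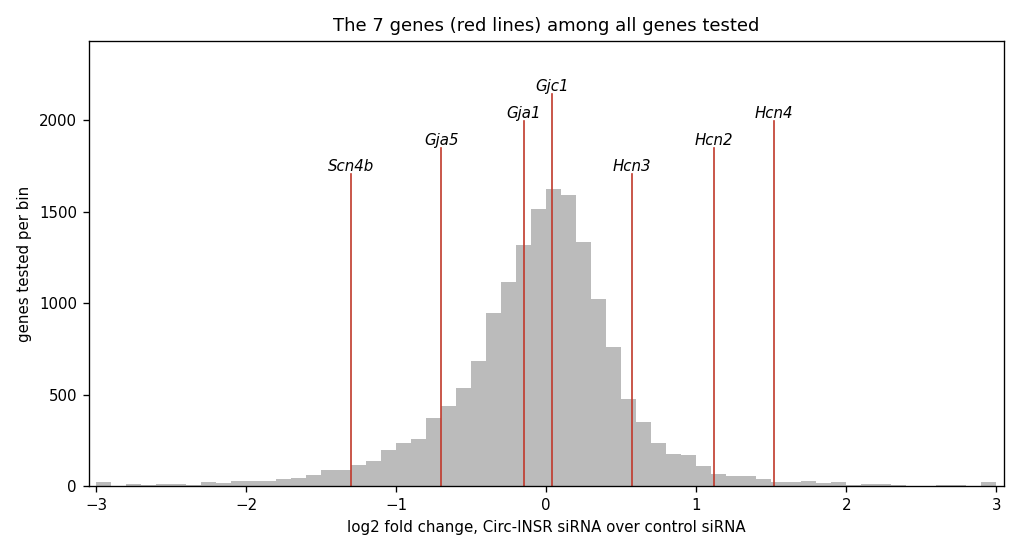
Distribution of log2 fold changes (Circ-INSR siRNA over control siRNA, x axis) over all 16666 genes tested (y axis, genes per bin of 0.1, values beyond 3 in the end bins), with a red line at each of the 7 genes. Hcn4 at 1.52 and Hcn2 at 1.12 lie in the right tail, Scn4b at -1.30 in the left tail, and Gja1 and Gjc1 near the centre.

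For each of the 7 genes, the 2 nearest genes over the 6 libraries were named, by Euclidean distance of centred log2 CPM in log2 units. The search was limited to genes above a minimum mean level and left out genes with provisional or clone names. The genes named are thus the nearest within that set, and need not be the nearest of all genes tested. With so few libraries many genes share such a pattern, and nothing about shared control follows. Nearest to Hcn4 were Mamld1 (distance 0.174), at 52.7 ± 1.99 CPM after Circ-INSR siRNA and 17.1 ± 2.47 CPM in controls, and Tek (0.181). Nearest to Hcn2 were Pdlim2 (0.0856) and Rilpl2 (0.118). Scn4b lay nearest to Ifitm10 (0.475) and Fam180a (0.476), and Hcn3 to Rimbp3 (0.422) and Plcxd3 (0.451), all at larger distances. Scn4b had 0.419 CPM after Circ-INSR siRNA and 1.03 CPM in controls, and Hcn3 1.37 CPM after Circ-INSR siRNA and 0.926 CPM in controls. Both lay below the minimum level, so genes at their own level were not searched. Whether such genes lay nearer was not tested. Gja5 lay nearest to Rb1 (0.186), the retinoblastoma gene, at 55.1 ± 1.03 CPM after Circ-INSR siRNA and 84.8 ± 5.88 CPM in controls, and to Lrrc57 (0.187). Nearest to Gja1 were Wdr37 (0.0372) and Rps6kb1 (0.0506), and to Gjc1 Eif2b2 (0.0229) and Egln1 (0.0382).

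Genes listed as relatives or partners of HCN channels were set beside them, and whether their products act on these channels here was not tested. Of 9 such genes 8 were tested, and 5 rose and 1 fell, where 28.5% of all genes tested rose and 28.5% fell, with a median log2 fold change of 0.25 against -0.005 over all genes. Among those that rose, Bves, Popdc2 and Popdc3 encode Popeye proteins, which bind cyclic AMP in cardiac membranes and are not HCN subunits. Bves was at 84.4, 85.7 and 90.3 CPM after Circ-INSR siRNA and 37.4, 39.7 and 40.9 CPM in controls, with a log2 fold change of 1.14 (SE 0.05, edgeR adjusted p = 8.62e-09). Popdc3 rose to 1.33 ± 0.369 CPM, against 0.332 ± 0.225 CPM in controls. Nedd4l, a ubiquitin ligase of ion channels, rose by 0.29 (SE 0.04). The gene that fell was Lrmp, whose product modulates HCN4 gating, at 1.43 ± 0.0967 CPM after Circ-INSR siRNA and 2.33 ± 0.268 CPM in controls (log2 fold change -0.70, SE 0.14, edgeR adjusted p = 0.00116). Listed genes that rose numbered 3 without control replicate 2, and likewise without Circ-INSR siRNA replicate 1. They numbered 7 with the replicate number as a block, and likewise with the length and GC dependence taken out.

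Of 10 genes whose products bind or anchor sodium channels 9 were tested, and 7 rose and 0 fell, with a median log2 fold change of 0.23; the split was 6 and 1 with total counts in place of scaling factors. The split was 5 and 0 without Circ-INSR siRNA replicate 2, and also with the length and GC dependence taken out. Over all genes tested 28.5% rose and 28.5% fell, the shares to set beside every list count here. Fgf12, which encodes an intracellular factor that binds the tail of the alpha subunit, had 69.7 ± 2.87 CPM after Circ-INSR siRNA and 42.1 ± 2.79 CPM in controls (log2 fold change 0.73, SE 0.06, edgeR adjusted p = 6.23e-07). Ank3, the ankyrin-G gene that places the channel at the membrane, rose to 197 ± 11.5 CPM after Circ-INSR siRNA, against 115 ± 14.2 CPM in controls. Camk2d, a kinase gene, rose by 0.23 (SE 0.04), a call that was lost with the length and GC dependence taken out.

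Of 19 other connexin and pannexin genes 8 were tested, and 1 rose and 2 fell, with a median log2 fold change of 0.03. The median was -0.11 without Circ-INSR siRNA replicate 3 and 0.20 without control replicate 3, and 2 rose and 3 fell without control replicate 2. Gjb5, the connexin31.1 gene, is best known from epithelia and had 1.63, 1.93 and 1.66 CPM after Circ-INSR siRNA against 6.74, 5.72 and 5.94 CPM in controls (log2 fold change -1.81, SE 0.12, edgeR adjusted p = 1.34e-07). The pannexin genes moved apart, with Panx2 at -1.95 (SE 0.14) and Panx3 at 1.79 (SE 0.24), both at most 3.23 CPM on average in either group. Gja4, the endothelial connexin37 gene, had at most 7 counts in any library, and 5 of the 19 genes were at 0 in all libraries.

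**Figure D4:**
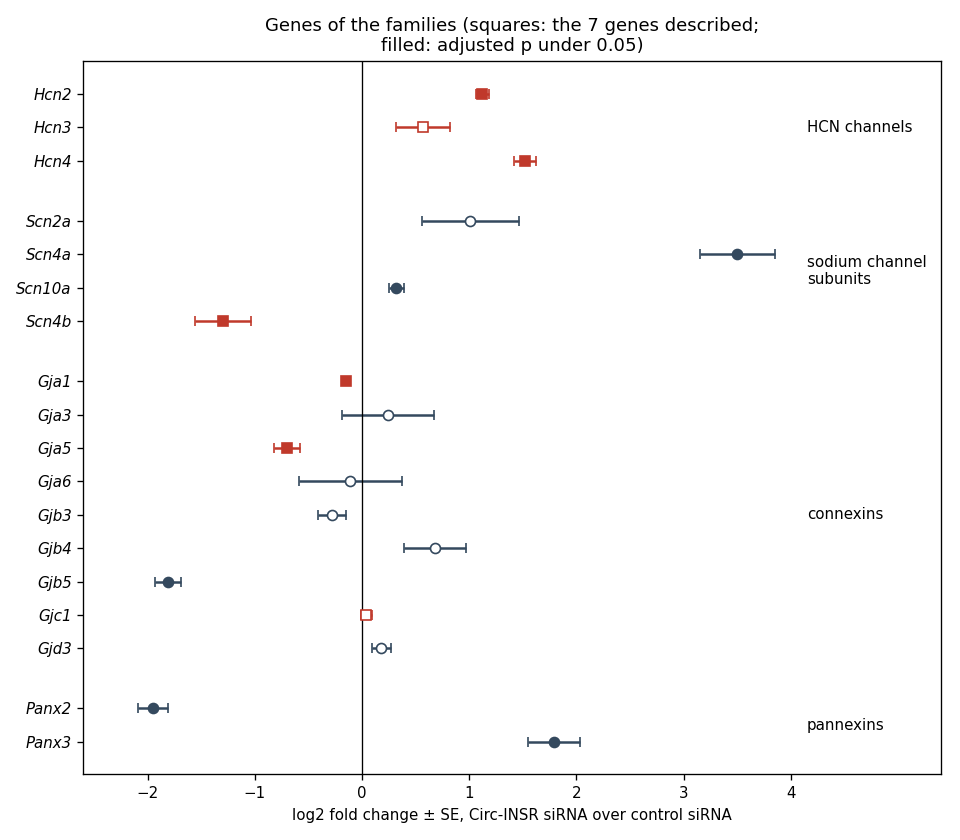
Log2 fold change ± SE (x axis, Circ-INSR siRNA over control siRNA) of HCN, sodium channel, connexin and pannexin genes; red squares are the 7 genes described, blue circles their relatives, and filled symbols have an adjusted p under 0.05. Hcn2 and Hcn4 lie right of 1, Scn4b lies left of -1, and Scn4a lies farthest right at 3.50.

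Genes of the intercalated disc and of connexin partners went both ways. Of 20 names 19 were in the files and 18 tested, of which 8 rose and 5 fell, with a median of 0.13; without control replicate 3 the counts were 10 and 6. Jup, the plakoglobin gene that links desmosomes and adherens junctions, fell to 147, 145 and 151 CPM after Circ-INSR siRNA, against 288, 289.9 and 270.2 CPM in controls (log2 fold change -0.94, SE 0.04, edgeR adjusted p = 1.63e-08). Cxadr, a junctional adhesion receptor gene, changed by -0.80 (SE 0.05), and Cnst, the consortin gene, whose product carries connexins to the membrane, by -0.39 (SE 0.05). Vcl, the vinculin gene, rose to 1319 ± 6.66 CPM after Circ-INSR siRNA, against 899 ± 56.9 CPM in controls (log2 fold change 0.55, SE 0.05).

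Transcription factors of pacemaker and conduction tissue were divided as well, with 6 higher and 6 lower of 16 tested and a median of 0.02. The split was 8 and 4 without control replicate 1 and 7 and 4 without Circ-INSR siRNA replicate 3. With the length and GC dependence taken out it was 8 and 5. Tbx18, a sinus node head factor, had 63.9, 64.6 and 61.4 CPM after Circ-INSR siRNA against 24.5, 26.9 and 27.6 CPM in controls (log2 fold change 1.26, SE 0.05, edgeR adjusted p = 7.93e-09). Gata6 rose by 1.19 (SE 0.06) and Mef2c by 0.42 (SE 0.05). Tbx2, a repressor of chamber genes such as Gja1 and Gja5 in the developing heart, fell to 1.96 ± 0.0862 CPM after Circ-INSR siRNA, against 4.18 ± 0.379 CPM in controls (log2 fold change -1.09, SE 0.11, edgeR adjusted p = 7.48e-06). Shox2, a sinus node factor, had 37.1 ± 2.11 CPM after Circ-INSR siRNA and 39.6 ± 2.23 CPM in controls and did not pass (edgeR adjusted p = 0.196), and Isl1 had at most 2 counts.

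Marker lists were set beside the label of the cells, which they do not test. A list of 12 cardiomyocyte genes was used as atrial markers, but Myh6, Actc1, Tnnt2, Tnni3 and Ryr2 in it are also expressed in ventricle. Of the 12, 11 were tested, with 6 higher and 2 lower. Their summed level ran from 7554 to 7679 CPM after Circ-INSR siRNA and from 6800 to 7083 CPM in controls. Actc1 rose by 0.87 (SE 0.04), Myl4 by 0.86 (SE 0.05) and Nr2f1 by 0.77 (SE 0.05), and Tnnt2 changed by -0.73 (SE 0.04). The largest parts of the sum of the 12 genes in both groups were Myh6, Actc1, Myl7 and Tnnt2, so it does not measure atrial genes alone. Nppa was at 16.4 ± 0.925 CPM after Circ-INSR siRNA and 16.6 ± 0.357 CPM in controls. Sln was at 0.892 ± 0.111 CPM after Circ-INSR siRNA and 0.908 ± 0.115 CPM in controls, and neither passed. Kcna5, an atrial potassium channel gene, had at most 2 counts. Of 4 ventricular markers Myl2 and Hey2 fell and Myl3 rose, with sums of 7.47 to 8.97 CPM after Circ-INSR siRNA and 11.8 to 13.7 CPM in controls.

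Endothelial markers are given beside Gja5, which endothelium also expresses. Of 6, 4 were tested, and Kdr and Tek rose, with log2 fold changes of 1.57 (SE 0.05) and 1.45 (SE 0.10). The summed level was 82.8 to 86.7 CPM after Circ-INSR siRNA and 27.3 to 30.7 CPM in controls. Most of it was Kdr, at 71.7 ± 2.49 CPM after Circ-INSR siRNA and 24.2 ± 1.45 CPM in controls. Pecam1, at 0.44 (SE 0.28, edgeR adjusted p = 0.205), and Tie1, at 0.95 (SE 0.47, edgeR adjusted p = 0.107), did not pass. Cdh5 and Vwf had at most 4 and 6 counts. Of 5 smooth muscle markers 4 rose (Acta2, Cnn1, Tagln and Myh11) with sums of 6491 to 6726 CPM after Circ-INSR siRNA against 4055 to 4171 CPM in controls. Most of that sum was Acta2, at 5793 ± 126 CPM after Circ-INSR siRNA and 3475 ± 49.6 CPM in controls. Of 8 fibroblast markers 5 were tested, of which 2 rose (Col3a1 and Col1a2) and Col1a1 fell (3 rose and 2 fell without Circ-INSR siRNA replicate 3). The sums were 135 to 154 CPM after Circ-INSR siRNA and 176 to 193 CPM in controls. Most of this was Col1a1, at 119.5 ± 7.67 CPM after Circ-INSR siRNA and 169 ± 9.64 CPM in controls. Dcn and Lum had at most 8 and 2 counts and Tcf21 had 0. Both tested markers of immune cells, Csf1r and Cd68, fell, with sums of 3.78 to 4.29 CPM after Circ-INSR siRNA and 6.69 to 7.54 CPM in controls, and Adgre1 had 0 counts. The part of these levels in the changes of the channel and connexin genes was not tested. In such bulk libraries fewer cells that express a gene and less RNA per cell cannot be told apart.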

How the data were processed

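Gene counts of 6 libraries were used. The authors deposited raw counts for each Ensembl gene ID, without normalization. Per the labels' protocols, RNA was isolated with a miRNeasy kit, selected for poly(A), and made into directional libraries. Per the submitters' processing notes the build was mm10 and the tools included STAR 2.5.0c and featureCounts 1.6.4, with no roles stated. The sources used here give neither a strand setting nor a rule for multiply mapped reads, so reads of overlapping genes on opposite strands may be mixed. Each library had 1.29 to 1.49 times as many genes at 2 counts as at 1, so halved counts were also tried.

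Names, positions and exonic lengths came from GENCODE M21 (36308 of 38087 IDs matched, 95.33%). edgeR 4.0.16 (R 4.3.3) was run on the counts: filterByExpr with a minimum count of 10 and a total of 15, TMM factors (0.983 to 1.03), and the robust quasi-likelihood test with the group as the only term. The SE is the log2 fold change over the root of F. The steps were tested on simulated data. Alternatives were other scalings and filters, each library left out, limma-voom (limma 3.58.1), DESeq2 1.42.0, the replicate number as a block, halved counts, and an offset that takes out each library's dependence on exon length and GC. Ratios were tested with scipy 1.17.1. Promoters came from RefSeq (GRCm38.p6), which held 5 of the 7 genes.

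The genes and lists were chosen with earlier results of these data known. Named genes are the 7, Insr, and per list up to 4 genes of smallest adjusted p. The 2 genes nearest to each of the 7, within the set searched, are named too. Of the list names 1 did not match. Some genes of the lists are not reported here and were left out of the list counts. Pklr and Gpr89, whose exons overlap those of Hcn3 and Gja5, fall outside that rule. So do Scn2b, Scn3b, Gja4, Popdc2, Shox2, Isl1, Nppa, Sln, Myh6, Myl7, Tnni3, Ryr2, Pecam1, Tie1 and marker genes named at low counts. All of these were chosen after their values were seen. Same-numbered libraries correlated weakly in their deviations from group means (0.024, 0.074 and 0.036), so the numbers were not taken as pairs.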

Additional observations from a re-analysis of the deposited data

How the results depend on the processing

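Under 16 alternative settings the number of genes called ran from 8401 to 10272, against 9495. Of 111 values of the 7 genes under these settings 103 kept their direction and their side of the threshold. Hcn2, Hcn4 and Gja5 passed in all 16, with log2 fold changes of 1.08 to 1.18, 1.40 to 1.63 and -0.78 to -0.61, and Scn4b passed in the 15 that tested it (-1.48 to -1.06). The log2 fold change of Hcn3 was 0.57 with no filter on low counts and 0.69 with the length and GC dependence taken out, both past the threshold, and ran from 0.33 to 0.77 with 1 library left out, where 2 of 6 passed. That of Gja1 ran from -0.18 to -0.13 with 1 library left out, where 3 of 6 no longer passed, and the cause was not tested. Gja1 passed in 13 of the 16 settings and stood at -0.22 with the length and GC dependence taken out. It has 10257 bases of exon, and so belongs to the long genes that deviated in control replicate 3. Gjc1 stood at -0.01 with total counts only and ran from 0.01 to 0.07 with 1 library left out.

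With the replicate number as a block 9868 genes were called, and the 7 genes kept their calls. Each library correlated best with the one of its own number in the other group, which is a hint from the data and not from the design. With the length and GC dependence taken out, other connexin and pannexin genes that rose numbered 2 rather than 1. Genes of the atrial list that fell then numbered 1 rather than 2, and genes of the HCN list that rose 7 rather than 5. The low counts of Scn4b and Hcn3 limit their precision. The list counts under alternatives were added after the data were seen.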
